A study of Homo sapiens with 4 samples.

Results

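Expression of 10 genes of common gamma-chain cytokine signalling and its feedback inhibitors was followed in Jurkat T cells treated with JQ1 in the presence or absence of PHA. They were chosen by gene symbol, with no threshold on their values but with earlier results of these data known. All 10 are among 50868 genes listed in the count tables. They are the receptor chains IL7R and IL2RG, the kinases JAK1 and JAK3, the transcription factors STAT5A and STAT5B, the inhibitors CISH, SOCS1 and SOCS3, and the kinase PIM1. Jurkat is an established line of leukaemic human T cells, given as wild type in the labels. Cells were kept for 24 h with the solvent DMSO or with JQ1 at 0.5 μM, and in each case either without PHA or with PHA at 150 ng/ml, which gives the conditions DMSO, JQ1, DMSO + PHA and JQ1 + PHA. JQ1 displaces the BET proteins from acetylated chromatin, and PHA (phytohemagglutinin) is a plant lectin that activates T cells through their surface receptors. RNA was sequenced from 1 library per condition, 4 libraries in all, so the spread between cultures is not known for any value. No test between conditions was made, and every interval given covers counting error only.

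The common gamma chain, the product of IL2RG, is a subunit that the receptors for IL-2, IL-4, IL-7, IL-9, IL-15 and IL-21 share. It pairs with a chain specific to the cytokine, such as IL7R. On binding of the cytokine, JAK1 on the specific chain and JAK3 on the gamma chain phosphorylate STAT proteins, chiefly STAT5A and STAT5B for IL-2, IL-7 and IL-15, which enter the nucleus and switch on target genes. Among these targets are CISH, SOCS1 and SOCS3, whose proteins dampen the same receptors, and PIM1, a serine/threonine kinase that favours survival. IL-7 signalling maintains resting T cells, and loss of IL2RG, JAK3 or IL7R in people causes severe combined immunodeficiency.

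With JQ1 the genes of this pathway moved in different directions. JAK1 and PIM1 were more than 2-fold higher and IL7R more than 2-fold lower, both without and with PHA, although for IL7R this depended on the constant added to FPKM. STAT5A, at a low level, was 3.37-fold lower without PHA and 4.92-fold lower with it, while its close relative STAT5B changed by less than 1.5-fold in each of these comparisons. IL2RG and JAK3 stayed within 2-fold, and CISH, SOCS1 and SOCS3 had few counts. In the comparisons of PHA with no PHA, none of the members with a mean FPKM of 1 or more passed 2-fold.

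The libraries held 18620954 to 19685401 counts each, and between 20939 and 22118 genes had at least 1 count. The floor of 3 counts used here came to 0.152 to 0.161 CPM, the count scaled to library size. HEXIM1, a gene known to go up when BET proteins are inhibited, had 2450 counts with DMSO, 7687 with JQ1, 2451 under DMSO + PHA and 6994 under JQ1 + PHA. CD69, a marker of T-cell activation, had 67, 51, 1359 and 198 counts in the same order, and EGR1, an early gene of T-cell activation, had 29, 25, 2464 and 400. HEXIM1 was thus high in both JQ1 libraries, and CD69 and EGR1 in both PHA libraries. All 13 T-lineage markers had over 3 counts in every library, with a summed FPKM between 709 and 1270. Of the 14 markers of other cell types, 6 or 7 had over 3 counts, with a summed FPKM between 3.65 and 28.2, and CSF1R, EPCAM and KRT5 were at 0 in all libraries. TRBC1, the T-lineage marker of highest FPKM, was not lower with JQ1 (330 with DMSO, 363 with JQ1, 374 under DMSO + PHA and 383 under JQ1 + PHA). The other 12 T-lineage markers were themselves lower in both JQ1 comparisons. Over all 13 the median log2 ratio was -0.85 without PHA and -1.08 with it. CD79A and PECAM1, the 2 genes on the list for other cells that passed the filter on level, were lower too, by a median of -2.86 and -2.79. In the DMSO library their FPKM was 7.48 and 13.99, of a summed 22.9 for that list. Whether their reads came from other cells was not tested. CD79A had 343, 51, 304 and 46 counts and PECAM1 2381, 294, 3410 and 374, in the order DMSO, JQ1, DMSO + PHA and JQ1 + PHA. The part of either marker list in the results on the members was not tested. In such bulk RNA, fewer cells expressing a gene and less RNA per cell cannot be told apart.

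The plot of the members' levels gives the FPKM (reads scaled to gene length and library size) of each gene in each library. In the DMSO library the order was JAK1 (19.4), IL2RG (16.6), STAT5B (11.6), IL7R (1.68), JAK3 (1.53), PIM1 (1.14), STAT5A (0.686), SOCS3 (0.532), CISH (0.441) and SOCS1 (0.0868). Of the 9 pairs of neighbours in this order, 4 had overlapping counting intervals, namely IL7R with JAK3, JAK3 with PIM1, STAT5A with SOCS3, and SOCS3 with CISH. JAK1, IL2RG and STAT5B were the highest of the 10 in all 4 libraries. The FPKM were made with a gene length that is longer than the annotated canonical transcript for 9 of the 10 members. For IL2RG it is 6291 bases, where the gene spans 4705 bases of the genome, and for CISH it is 9031 bases, where the gene spans 5342. With the length of the canonical transcript, 1480 bases for IL2RG, the DMSO library had IL2RG at 70.5 and JAK1 at 27.1, and the order of these genes was turned round. Comparisons of a gene between libraries do not depend on this length, apart from the filter and the small constant that is added to FPKM before logs are taken.

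**Figure D1:**
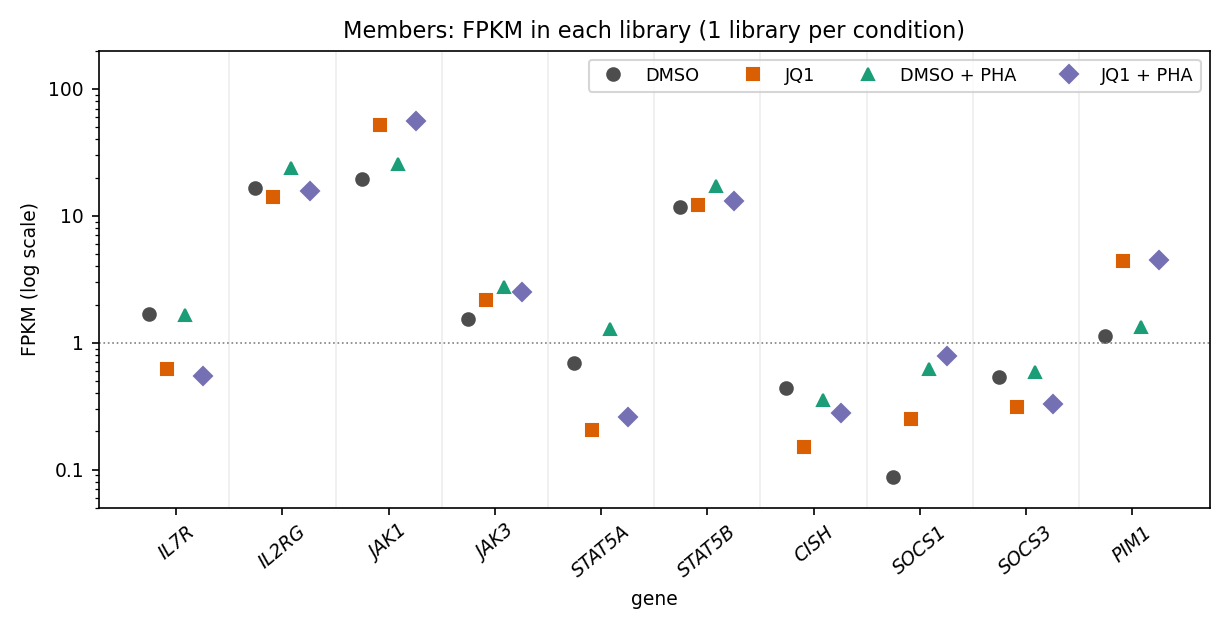
FPKM of the 10 members on a log axis, with 1 point for each of the 4 libraries (circle DMSO, square JQ1, triangle DMSO + PHA, diamond JQ1 + PHA) and a dotted line at an FPKM of 1. The JQ1 and JQ1 + PHA points lie above the DMSO and DMSO + PHA points for JAK1 and PIM1 and below them for IL7R and STAT5A.

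Genes were counted as past 2-fold where their mean FPKM over the libraries was at least 1 and the log2 ratio of FPKM, after 0.1 was added, was at least 1 in size. This filter kept 11503 genes and 6 of the 10 members, namely IL7R, IL2RG, JAK1, JAK3, STAT5B and PIM1. STAT5A, CISH, SOCS1 and SOCS3 lay below it, and all 10 members had counts in every library. In JQ1 against DMSO, 2 of the 6 members were past 2-fold higher and 1 lower, where 5.22% of all genes that passed the filter were higher and 8.65% lower. In JQ1 + PHA against DMSO + PHA the counts were again 2 higher and 1 lower, against 3.69% and 8.00% of all genes. In DMSO + PHA against DMSO and in JQ1 + PHA against JQ1, 0 of the 6 were past 2-fold in either direction, where 3.29% and 2.07% of all genes were. The median log2 ratio of the 6 members was 0.27 for JQ1 without PHA, -0.28 for JQ1 with PHA, 0.46 for PHA without JQ1 and 0.10 for PHA with JQ1, and that of all genes lay between -0.02 and 0.00 in the 4 comparisons. The members are few, and these counts describe them and no more.

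Single genes are given below as the log2 ratio of their shares of the libraries' counts, with an exact 95% (Clopper-Pearson) interval. At this depth such an interval excluded 0 for 75.6% of all genes that passed the filter in JQ1 against DMSO and for 72.9% with PHA, and for 49.8% and 31.4% in the PHA comparisons without and with JQ1. It did so for 5, 5, 4 and 4 of the 6 members in the same order. An interval that excludes 0 is therefore common and shows no more than that counting error does not cover the difference between a pair of libraries. Each library entered 2 comparisons, and the comparisons of JQ1 without and with PHA share none, while each JQ1 comparison shares libraries with both PHA comparisons.

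**Figure D2:**
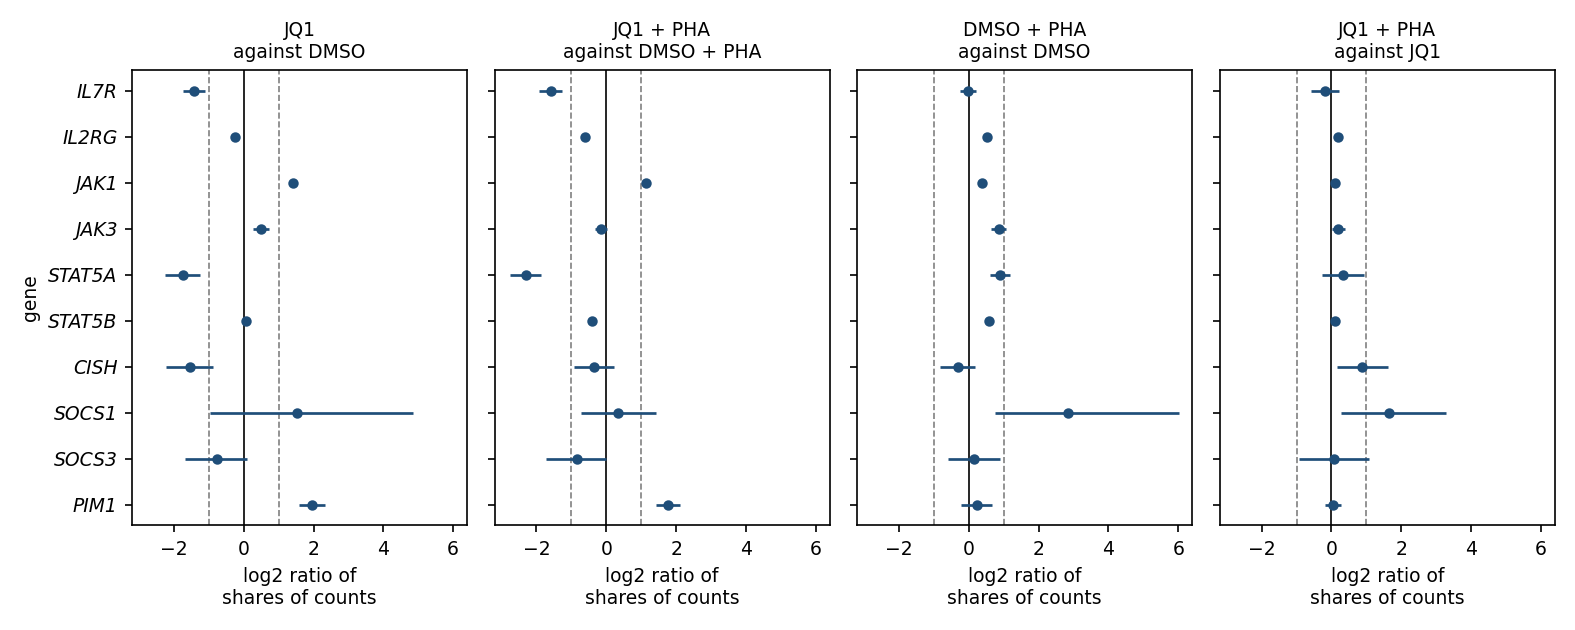
Log2 ratio of the share of counts (points) with its exact 95% counting interval (bars) for the 10 members in the 4 comparisons, with dashed lines at 2-fold. JAK1 and PIM1 lie to the right and IL7R and STAT5A to the left of the 2-fold lines in both JQ1 comparisons, and the SOCS1 and SOCS3 bars are the widest.

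IL7R (ENSG00000168685, GRCh38 chromosome 5 from 35852695 to 35879603, 8 exons), the chain that binds IL-7 and, with CRLF2, TSLP, had 302 counts in the DMSO library, 117 after JQ1, 313 in DMSO + PHA cells and 98 in JQ1 + PHA cells. Both JQ1 libraries were below both libraries without JQ1. The gene was 2.70-fold lower with JQ1 (log2 ratio -1.43, interval -1.75 to -1.12) and 3.02-fold lower with JQ1 in the presence of PHA (-1.60, -1.94 to -1.26). Its log2 ratio with PHA was -0.01 (-0.25 to 0.22) without JQ1 and -0.18 (-0.58 to 0.22) with JQ1, so that no difference with PHA was detectable at this depth. On the scale of FPKM the size of the JQ1 ratios depended on the constant added, since they were -1.30 and -1.44 with 0.1 but -0.72 and -0.78, within 2-fold, with 1.

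IL2RG (ENSG00000147168, chromosome X from 71107404 to 71112108, 8 exons), the gamma chain itself, had 1962 counts with DMSO, 1733 with JQ1, 2962 under DMSO + PHA and 1854 under JQ1 + PHA. The DMSO + PHA library was the high one, and the others lay close together. The log2 ratio for PHA was 0.53 (0.45 to 0.61) without JQ1 and 0.18 (0.08 to 0.27) with it. For JQ1 it was -0.24 (-0.34 to -0.15) without PHA and -0.60 (-0.68 to -0.51) with PHA. Of the stretches of 50 bases in the canonical IL2RG transcript, 68.6% also occur in a transcript of ENSG00000285171, an annotated gene not analysed here, and how the counting treated such reads is not stated.

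The other receptor chains listed were mostly low, and 2 of these 8 passed the filter. IL9R, the chain for IL-9, had 386, 150, 545 and 114 counts in the order DMSO, JQ1, DMSO + PHA and JQ1 + PHA. It was thus lower with JQ1 both without PHA (log2 ratio -1.43, -1.71 to -1.15) and with PHA (-2.18, -2.48 to -1.88), although 37.3% of its 50-base stretches also occur in other genes, the pseudogene IL9RP3 among them. IL2RB, the chain for IL-2 and IL-15 that carries their signal, had 55, 120, 218 and 159 counts. The DMSO library was the lowest, and the gene was 3.79-fold higher with PHA than without it in the absence of JQ1 (1.92, 1.49 to 2.38). Among the cytokines, IL2, IL4, IL7, IL9 and IL21 had 0 counts in all 4 libraries, which allows up to 3 counts, or 0.161 CPM, in each.

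JAK1 (ENSG00000162434, chromosome 1 from 64833229 to 64966504, 25 exons), the kinase shared by all receptors of this family, had 2600 counts in the DMSO library, 7291 after JQ1, 3563 in DMSO + PHA cells and 7468 in JQ1 + PHA cells. Both JQ1 libraries stood well above the others. It was 2.68-fold higher with JQ1 (log2 ratio 1.42, 1.36 to 1.49) and 2.22-fold higher with JQ1 in the presence of PHA (1.15, 1.09 to 1.21). With PHA its log2 ratio was 0.39 (0.32 to 0.46) without JQ1 and 0.11 (0.07 to 0.16) with JQ1.

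JAK3 (ENSG00000105639, chromosome 19 from 17824780 to 17848071, 24 exons), the partner kinase on the gamma chain, had 281 counts with DMSO, 416 with JQ1, 531 under DMSO + PHA and 453 under JQ1 + PHA. The DMSO library was the lowest of the 4. Its log2 ratio was 0.50 (0.28 to 0.72) for JQ1 without PHA, and with PHA a difference was not detectable at this depth (-0.15, -0.33 to 0.03). For PHA it was 0.85 (0.64 to 1.07) without JQ1 and 0.20 (0.01 to 0.40) with JQ1. JAK3 thus stayed below 2-fold in all comparisons, as did the other kinases of the family, JAK2 and TYK2, whose FPKM lay between 4.44 and 5.54 and between 5.48 and 6.09. JAK1 made up 61.6% of the summed FPKM of the 4 JAK genes in the DMSO library, 80.8% after JQ1, 66.0% under DMSO + PHA and 80.2% under JQ1 + PHA. With canonical transcript lengths these shares were 53.4%, 75.5%, 59.1% and 75.4%, so the order of the libraries was the same with either length.

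STAT5A (ENSG00000126561, chromosome 17 from 42287547 to 42311943, 19 exons) had 145 counts in the DMSO library, 45 after JQ1, 281 in DMSO + PHA cells and 54 in JQ1 + PHA cells. Both JQ1 libraries were below both others, and its FPKM was 0.686, 0.204, 1.27 and 0.258. The log2 ratio for JQ1 was -1.75 (-2.27 to -1.26) without PHA and -2.30 (-2.75 to -1.87) with PHA. For PHA it was 0.89 (0.60 to 1.19) without JQ1, and with JQ1 no difference was detectable at this depth (0.34, -0.26 to 0.95). On the scale of FPKM with 1 added, the JQ1 log2 ratios were -0.49 without PHA and -0.85 with PHA, within 2-fold. Since STAT5A lies below the filter it is not among the genes counted as past 2-fold, and among the 6536 genes whose mean FPKM was from 0.1 to 1, where counting error is larger, 19.2% were 2-fold lower with JQ1 and 20.7% were with JQ1 in the presence of PHA.

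STAT5B (ENSG00000173757, chromosome 17 from 42199168 to 42276707, 19 exons), the neighbouring gene on that chromosome, which encodes a nearly identical protein, had 1725 counts with DMSO, 1882 with JQ1, 2686 under DMSO + PHA and 1901 under JQ1 + PHA. The DMSO + PHA library was again the high one. The log2 ratio for JQ1 was 0.06 (-0.03 to 0.16) without PHA and -0.42 (-0.50 to -0.33) with PHA, and for PHA it was 0.57 (0.49 to 0.66) without JQ1 and 0.09 (0.00 to 0.19) with JQ1. The FPKM of STAT5B was 17.0 times that of STAT5A in the DMSO library, 59.7 times after JQ1, 13.6 times under DMSO + PHA and 50.2 times under JQ1 + PHA. With canonical transcript lengths these ratios were 8.83, 31.0, 7.10 and 26.1, so in every library STAT5B made up most of the STAT5 transcripts. STAT5A shares 15.1% of its 50-base stretches with STAT5B, and STAT5B shares 10.1% of its own with STAT5A, so reads there could be counted for either gene.

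STAT2, STAT3, STAT4 and STAT6, the other STAT factors listed, passed the filter, and 2 of these 4 were past 2-fold higher with JQ1 without and with PHA. Of all genes that passed the filter, 5.22% were past 2-fold higher with JQ1 without PHA and 3.69% with it. STAT4, which carries signals of IL-12, had 113 counts in the DMSO library, 612 after JQ1, 113 in DMSO + PHA cells and 597 in JQ1 + PHA cells, and was 5.18-fold higher with JQ1 (log2 ratio 2.37, 2.08 to 2.68) and 5.59-fold higher with JQ1 in the presence of PHA (2.48, 2.19 to 2.78). STAT2, which acts in the response to type I interferons, had 605, 1539, 726 and 1682 counts (1.28 without PHA, 1.15 to 1.42, and 1.29 with PHA, 1.17 to 1.42). STAT3 and STAT6 stayed within 2-fold in all 4 comparisons. Of the 6 STAT genes compared here STAT5B had the highest FPKM in all 4 libraries, but with canonical transcript lengths its place was the third or the fourth.

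**Figure D3:**
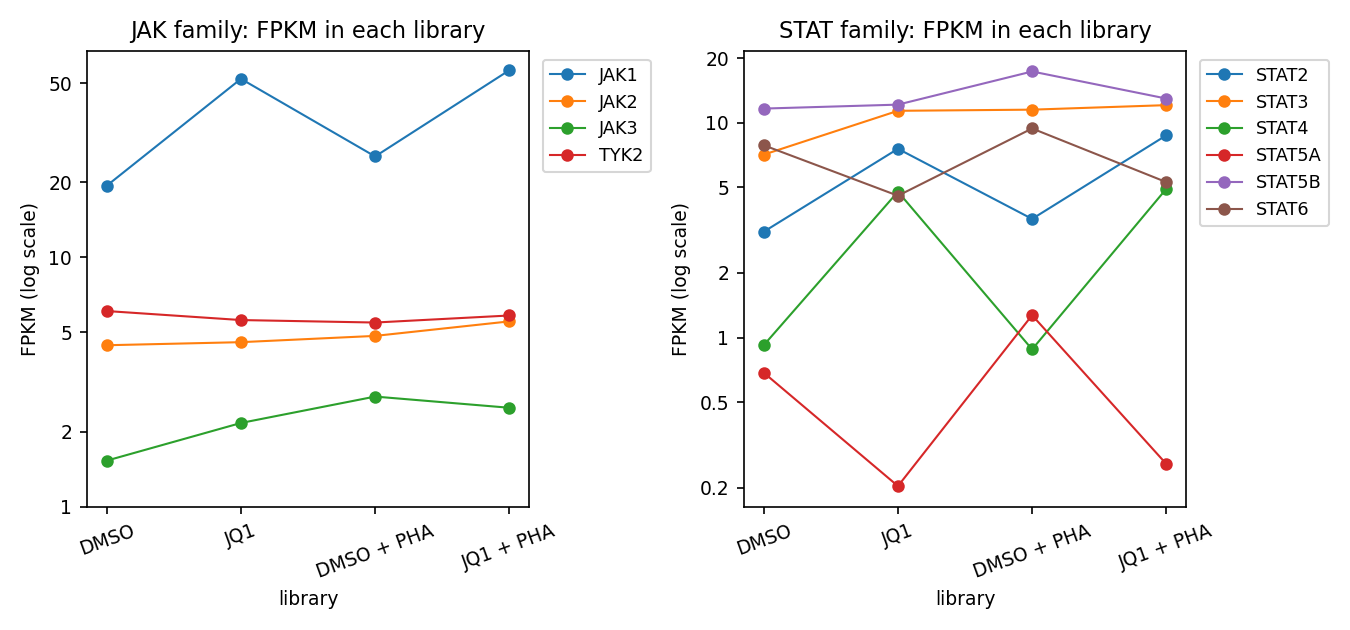
FPKM on a log axis of the 4 JAK genes (left) and 6 STAT genes (right) in the 4 libraries, which the lines join only to guide the eye. JAK1 and STAT4 are high in both JQ1 libraries and STAT5A is low in them, while JAK2, TYK2 and STAT5B differ by less than 2-fold over the libraries.

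CISH (ENSG00000114737, chromosome 3 from 50606490 to 50611831, 3 exons) encodes an inhibitor that STAT5 is known to induce through paired binding sites upstream of the gene. STAT5 dimers bind TTCNNNGAA, a motif that reads the same on both strands, and the 250 bases upstream of each RefSeq start (GRCh38.p14) were searched for it. Of the 10 members, with 15 promoter entries, CISH was the 1 with a match. It had 4 matches, which stand in 2 pairs. At least 1 match was found in 6.57% of 35116 promoters, at least 2 in 0.356% and at least 4 in 5 entries. The matches are shown because, in the entries searched, they set CISH apart from the other members by sequence alone. For all members but STAT5A, no RefSeq start equals the start of the gene span used here. The bases just upstream of that span start were not searched for IL7R, IL2RG, STAT5B and SOCS3. For JAK1, SOCS1 and PIM1 a short stretch next to it was not searched either. The CISH matches are on the minus strand, in capitals, with up to 10 bases on each side, and each line gives the coordinates of the stretch printed. The upper pair lies 241 to 222 bases and the lower pair 129 to 104 bases upstream of the start, and stretches of a pair overlap.
CISH chr3:50611997-50612024: cgccccgttTTCCTGGAAagttcttgga
CISH chr3:50611986-50612014: tcctggaaagTTCTTGGAAatctgtcaaa
CISH chr3:50611885-50611913: cagcccgcggTTCTAGGAAgacgctgctt
CISH chr3:50611868-50611896: aagacgctgcTTCCGGGAAgggctggaac

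CISH had 75 counts with DMSO, 27 with JQ1, 63 under DMSO + PHA and 47 under JQ1 + PHA, so the JQ1 library was the lowest. It was 2.91-fold lower with JQ1 (log2 ratio -1.54, -2.23 to -0.89), whereas with PHA present the log2 ratio for JQ1 was -0.34 (-0.92 to 0.23) and no difference was detectable at this depth. For PHA it was -0.32 (-0.82 to 0.19) without JQ1 and 0.88 (0.17 to 1.62) with JQ1. On the scale of FPKM with 1 added, the log2 ratio for JQ1 without PHA was -0.32, within 2-fold. CISH lies below the filter, and 19.2% of genes with a mean FPKM from 0.1 to 1 were 2-fold lower with JQ1. CISH overlaps MAPKAPK3, a kinase gene on the other strand, over 312 bases, 218 of them in exons. MAPKAPK3 had 2551, 668, 2354 and 698 counts in the order DMSO, JQ1, DMSO + PHA and JQ1 + PHA, and its log2 ratio for JQ1 was -2.00 (-2.12 to -1.87) without PHA and -1.67 (-1.80 to -1.55) with PHA. Whether the counting used strand is not stated, so reads in the shared bases cannot be told apart, and their part in the CISH counts was not tested.

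SOCS1 (ENSG00000185338, chromosome 16 from 11254405 to 11256179, 2 exons), which blocks JAK kinases directly, had 2 counts in the DMSO library, 6 after JQ1, 15 in DMSO + PHA cells and 18 in JQ1 + PHA cells. The PHA libraries held most of these counts. Without JQ1 the ratio for PHA was 7.17 (log2 ratio 2.84, 0.74 to 6.01), but it rests on 2 counts in the DMSO library, below the floor of 3. With JQ1 it was 3.17 (1.66, 0.27 to 3.29). On the scale of FPKM with 1 added, these log2 ratios were 0.58 and 0.52. For JQ1 the log2 ratio was 1.52 (-0.96 to 4.86) without PHA and 0.34 (-0.73 to 1.44) with PHA, so that a difference was not detectable at this depth. The gene lies within RMI2 on the other strand, which had 183, 163, 135 and 135 counts, but shares no annotated exon bases with it.

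SOCS3 (ENSG00000184557, chromosome 17 from 78356778 to 78360077, 2 exons), known mainly as an inhibitor of signals through STAT3, had 31 counts with DMSO, 19 with JQ1, 36 under DMSO + PHA and 19 under JQ1 + PHA. Both JQ1 libraries were the lower ones. The log2 ratio for JQ1 was -0.77 (-1.68 to 0.10) without PHA and -0.84 (-1.73 to -0.002) with PHA, and for PHA it was 0.15 (-0.58 to 0.89) without JQ1 and 0.08 (-0.92 to 1.08) with JQ1. The intervals for JQ1 held a 2-fold difference as well as values at or near 0, and the interval with PHA held 0 under TMM factors, DESeq2 factors or centring on the median gene. Of the other SOCS genes, SOCS4, SOCS5, SOCS6 and SOCS7 passed the filter and none of them was past 2-fold in any comparison.

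PIM1 (ENSG00000137193, chromosome 6 from 37170203 to 37175426, 6 exons) had 81 counts in the DMSO library, 327 after JQ1, 99 in DMSO + PHA cells and 318 in JQ1 + PHA cells. Both JQ1 libraries were far above both others. It was 3.86-fold higher with JQ1 (log2 ratio 1.95, 1.59 to 2.32) and 3.40-fold higher with JQ1 in the presence of PHA (1.76, 1.43 to 2.10), the largest JQ1 ratios among the 6 members that passed the filter. For PHA its log2 ratio was 0.22 (-0.21 to 0.67) without JQ1 and 0.04 (-0.19 to 0.27) with JQ1. PIM2 and PIM3, the other kinases of the family, stayed within 2-fold in all comparisons, with FPKM between 4.61 and 5.77 and between 11.3 and 13.9.

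A list of 65 further genes of the pathway was compared in the same way, and 45 of them passed the filter. With JQ1, 5 were past 2-fold higher and 3 lower without PHA (17.8% of the 45 in either direction, against 13.9% of all genes), and 4 were higher and 3 lower with PHA (15.6% against 11.7%). With PHA, 3 were higher and 0 lower without JQ1 (6.67% against 3.29%), and 0 passed with JQ1. The median log2 ratio of the 45 genes was 0.35, 0.16, 0.13 and 0.04 in the 4 comparisons in this order. In the JQ1 comparisons the shares of the list were thus near those of all genes.

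Among 13 genes listed as targets of STAT5, 7 passed the filter, and with JQ1 they differed in direction. Both without and with PHA, 3 of the 7 (42.9%) were past 2-fold with JQ1, against 13.9% and 11.7% of all genes. The 7 genes are few, and the 3 had a mean FPKM of 2.35 (CCND2), 2.07 (BCL2) and 1.45 (MYC). The constant added to FPKM was not varied for this list, so how far these counts rest on it was not tested. CCND2, a D-type cyclin, had 663, 99, 531 and 101 counts in the order DMSO, JQ1, DMSO + PHA and JQ1 + PHA, and was lower with JQ1 both without PHA (log2 ratio -2.81, -3.13 to -2.50) and with PHA (-2.31, -2.64 to -2.00). BCL2, an inhibitor of apoptosis, had 771, 360, 1068 and 387 counts and was also past 2-fold lower in both JQ1 comparisons. MYC, a regulator of growth, had 106, 273, 162 and 454 counts and was past 2-fold higher in both, like PIM1. BCL2L1, MCL1, CCND3 and DUSP5 stayed within 2-fold. GZMB, which encodes a cytotoxic protease, had at most 3 counts in a library, and TNFRSF13B had 0 in all.

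Of the 8 genes listed as regulators of IL7R, all passed the filter. FOXO1, which is known to activate IL7R in T cells, had 94 counts with DMSO, 391 with JQ1, 127 under DMSO + PHA and 340 under JQ1 + PHA. It was 3.98-fold higher with JQ1 (log2 ratio 1.99, 1.66 to 2.33) and 2.83-fold higher with JQ1 in the presence of PHA (interval of the log2 ratio 1.20 to 1.81), in the libraries in which IL7R was low. KLF2, a transcription factor of resting T cells, had 14, 95, 61 and 82 counts, so that the DMSO library stood apart as low. It was past 2-fold higher with JQ1 without PHA (2.70, 1.88 to 3.62) and with PHA without JQ1 (2.06, 1.20 to 3.01). PTPN6, the phosphatase SHP-1, which dephosphorylates JAK kinases, had 810, 597, 1832 and 1006 counts and was 2.16-fold higher with PHA without JQ1. It was the 1 gene of 16 phosphatases, PIAS proteins and adaptors to pass 2-fold (6.25%, against 3.29% of all genes).

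**Figure D4:**
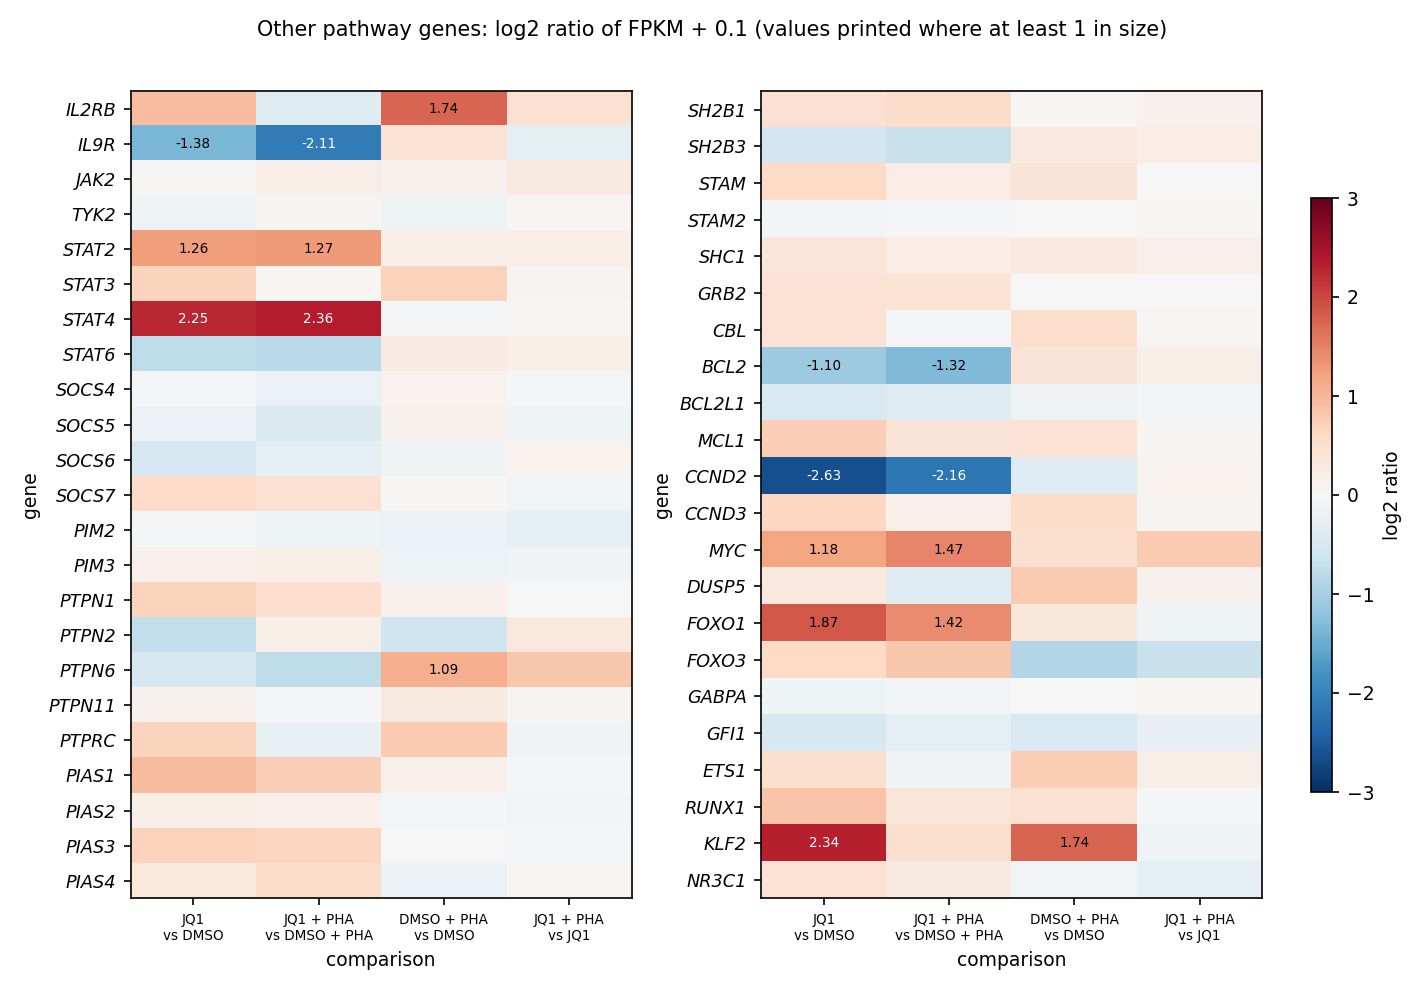
Log2 ratio of FPKM + 0.1 for the 45 further pathway genes that passed the filter, in the 4 comparisons (red higher, blue lower), with the value printed where it is at least 1 in size. STAT2, STAT4, MYC and FOXO1 are red and IL9R, BCL2 and CCND2 blue in both JQ1 comparisons, and the column for PHA with JQ1 holds no printed value.

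Whether the JQ1 ratio depended on PHA was described by the difference between the log2 ratios with and without PHA. This difference was -0.16 (-0.63 to 0.30) for IL7R, -0.18 (-0.68 to 0.31) for PIM1 and -0.55 (-1.22 to 0.13) for STAT5A, so for these genes counting error covered it. For JAK1 it was -0.28 (-0.36 to -0.19), for IL2RG -0.35 (-0.48 to -0.23), for STAT5B -0.48 (-0.61 to -0.35) and for JAK3 -0.65 (-0.94 to -0.36), and these intervals excluded 0. In JAK3 and STAT5B the JQ1 ratio was on either side of 0 without and with PHA, but 1 of the ratios of each gene had an interval that held 0. For STAT5B that interval, of JQ1 without PHA, excluded 0 when counts were scaled by DESeq2 size factors (0.11, 0.01 to 0.20). CISH went the other way, with a difference of 1.20 (0.30 to 2.10). This rests on few counts, and on the scale of FPKM with 1 added the CISH difference was 0.24, below that interval. For SOCS1 and SOCS3 the intervals were too wide for a statement, at -1.18 (-4.68 to 1.60) and -0.07 (-1.33 to 1.19).

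**Figure D5:**
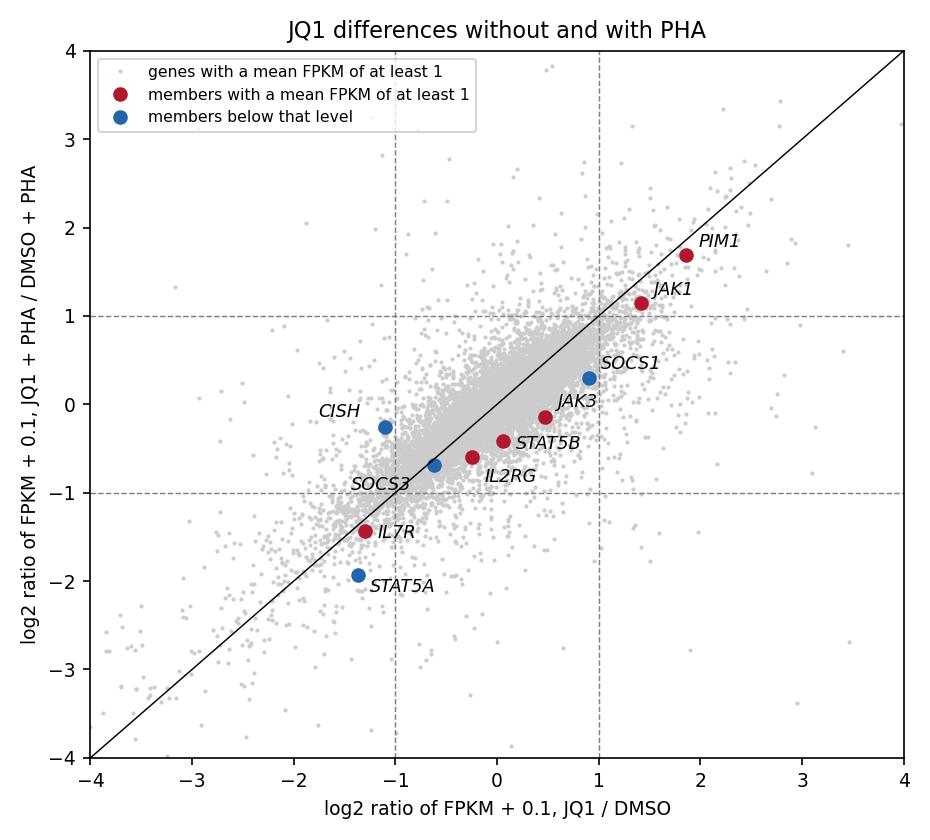
Log2 ratio of FPKM + 0.1 for JQ1 against DMSO (x axis) and for JQ1 + PHA against DMSO + PHA (y axis), with the 11503 genes that passed the filter in grey, members among them in red and the 4 other members in blue. Dashed lines mark 2-fold and the solid line equality, and 46 genes lie outside the axes. PIM1 and JAK1 are in the upper right, IL7R and STAT5A in the lower left, and CISH and SOCS1 lie on different sides of the line of equality.

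For the members that passed the filter and differed by at least 2-fold between libraries, the genes with the most similar pattern were sought among 9488 protein-coding genes, by the root mean square difference of the centred log2 values over the 4 libraries. For IL7R these were TRAT1 (0.028), which encodes an adaptor of the T-cell receptor, DHX33 (0.030) and GPR157 (0.036). TRAT1 had FPKM values of 9.64, 3.96, 9.51 and 3.36 in the order DMSO, JQ1, DMSO + PHA and JQ1 + PHA. For JAK1 they were DOCK4 (0.018), NCOA1 (0.029), a nuclear receptor coactivator, and ZNF527 (0.047). For PIM1 they were ABCA7 (0.026), SMIM14 (0.050) and ADD3 (0.067). With 4 libraries many genes share a pattern of high or low values with JQ1, and the likeness is a description only.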

How the data were processed

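Jurkat cells were sequenced in 4 libraries, 1 for each condition, on an Illumina HiSeq2500. Per the labels and the methods the authors aligned reads to GRCh38 with Hisat2 2.0.4, while the submitters' processing notes list TopHat2 2.0.9 and Cufflinks 2.1.1. The labels name the VAHTS Universal V6 kit and the methods a stranded VAHTS kit, and the counting program, its use of strand and the annotation are not given in the sources used here. The deposited files hold a count of reads per gene, not normalized, and the authors' FPKM, which were found to equal the count over the product of a gene length and the library total (checked on 12689 genes, where that length differed between libraries by at most 4.65e-05 of its value). Total counts lay between 18620954 and 19685401. The labels do not say whether libraries came from separate cultures.

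The members and lists were chosen with earlier results of these data known. Groups came from the labels, and 4 comparisons were made: JQ1 against DMSO, the same in the presence of PHA, and PHA against no PHA without and with JQ1. Genes past 2-fold were counted from the log2 ratio of FPKM + 0.1 at a mean FPKM of at least 1. For single genes, 95% intervals of the ratio of count shares (Clopper-Pearson, exact), and conditional exact intervals of the difference of log2 ratios, were computed; they cover counting error only, and reads without molecular identifiers are not independent molecules. The steps were tested on simulated data. Results that need items withheld for evaluation are not reported here. With 1 library per condition no count model was fitted. Named genes were all members, HEXIM1, EGR1 and CD69, listed genes past 2-fold in a comparison or with at most 3 counts in every library, the 3 genes of most similar pattern and overlapping genes with more than 3 counts. JAK2, TYK2, other STAT, SOCS and PIM genes and the listed targets that stayed within 2-fold were named after their values were seen, to complete their families and lists. RAVER2, which overlaps JAK1 by 4 bases, had 851, 543, 818 and 466 counts, and RP11-358B23.7 and AC003104.1, within STAT5B, had at most 15.

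Gene spans came from the files, exons, canonical transcripts and stretches of 50 bases from GENCODE release 44 (49659 of 50868 identifiers matched), and promoters from RefSeq, with the motif searched on both strands. Alternatives were the pseudocount, the filter, the fold threshold, TMM and DESeq2 scaling and centring on the median gene. The canonical transcript length was added after seeing the data. TMM and DESeq2 factors came from edgeR 4.0.16 and DESeq2 1.42.0 under R 4.3.3, used for scaling alone, and all else was computed in Python 3.11.15 (scipy 1.17.1, pandas 2.3.3, numpy 2.4.6, with plots by matplotlib 3.10.9).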

Additional observations from a re-analysis of the deposited data

Results flagged for a closer look

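IL2RB, the receptor chain that carries the signal of IL-2 and IL-15, stood out because JQ1 went with a higher share of counts in the absence of PHA and a lower one in its presence. It had 55 counts with DMSO and 120 with JQ1 (log2 ratio 1.06, interval 0.59 to 1.55), but 218 with DMSO + PHA and 159 with JQ1 + PHA (-0.38, -0.68 to -0.07). The difference between the log2 ratios was -1.44 (-2.01 to -0.87), an interval that covers counting error between single libraries. IL2RB was picked, among the members and the listed genes past 2-fold, because both ratios had intervals off 0 and opposite signs. The interval of the difference is therefore no separate support, and the share of all genes that meet this rule was not computed. With 1 library per condition the difference was not tested, and the spread between cultures is not known. The gene passed the filter on level but its JQ1 ratios were within 2-fold on the scale of FPKM + 0.1.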

How the results depend on the processing

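The log2 ratios of the 10 members kept their direction under each scaling and added constant that was run. In JQ1 against DMSO, the 3 members past 2-fold became 5 at a mean FPKM of at least 0.1, with no filter and with the canonical transcript length (STAT5A and CISH came in), and 1 at a mean FPKM of at least 5 (JAK1) or at 3-fold (PIM1). With JQ1 in the presence of PHA the 3 became 1 under the last pair of settings and 4 at a mean FPKM of at least 0.1, with no filter and with the canonical transcript length (STAT5A came in) and at 1.5-fold (IL2RG came in), and for PHA against no PHA the 0 became 1 at a mean FPKM of at least 0.1 and with no filter (SOCS1, without and with JQ1) and 1 at 1.5-fold (JAK3, without JQ1). For IL7R, adding 1 instead of 0.1 to FPKM brought it within 2-fold in both JQ1 comparisons. Of the members below the filter, it did the same for STAT5A in both (-0.49 and -0.85) and for CISH without PHA (-0.32). SOCS1 came within 2-fold in both PHA comparisons (0.58 without JQ1 and 0.52 with JQ1). Of the 65 further genes, the 8 past 2-fold with JQ1 became 1 at a mean FPKM of at least 5, 21 at 1.5-fold and 4 at 3-fold. The 7 with JQ1 in the presence of PHA became 13 at a mean FPKM of at least 0.1, with no filter and at 1.5-fold, 1 at a mean FPKM of at least 5 and 3 at 3-fold. The 3 with PHA became 7 at a mean FPKM of at least 0.1 and with no filter, 1 at a mean FPKM of at least 5 and 9 at 1.5-fold, and the 0 with PHA in JQ1-treated cells became 3 at 1.5-fold. For these 65 genes the added constant and the scaling were not varied. At settings other than the reported ones, the share of all genes past the threshold in either direction was not computed. The changed counts of members and of this list therefore have no such share beside them. Scaling by TMM or DESeq2 factors, or centring, left the members past 2-fold as they were. It moved single intervals over 0, so that the members whose interval excluded 0 went from 7 to 8 with JQ1 under DESeq2 factors (STAT5B) and from 7 to 6 with JQ1 in the presence of PHA under all 3 scalings (SOCS3). No paired analysis was possible because each condition has 1 library and the labels give no replicate numbers, and no library could be left out for the same reason. The main limits are the single library per condition, the unknown spread between cultures, the low counts of CISH, SOCS1 and SOCS3, and the gene lengths in the FPKM.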

Other observations

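Several genes of the pathway lay below a mean FPKM of 1 and outside the rule for named genes, and were picked after their values were seen. IL4R, the chain for IL-4, had 9 counts in the DMSO library, 22 after JQ1, 120 in DMSO + PHA cells and 8 in JQ1 + PHA cells, so that the DMSO + PHA library alone was high. IL21R, the chain for IL-21, had 14, 11, 90 and 22 counts in the same order, and was high in the same library. IL2RA, the chain that gives the IL-2 receptor its high affinity, had 3, 0, 38 and 1 counts. In JQ1 + PHA against DMSO + PHA the log2 ratio was -3.83 (-5.07 to -2.80) for IL4R, -1.95 (-2.70 to -1.27) for IL21R and -5.17 (-10.51 to -2.60) for IL2RA, with intervals for counting error only. Among the genes with a mean FPKM from 0.1 to 1, where these 3 lie, 20.7% were at least 2-fold lower in that comparison. IL2RG was also highest under DMSO + PHA, with a log2 ratio of -0.60 for JQ1 in the presence of PHA.

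SOCS2, a relative of CISH, had 100 counts with DMSO, 38 with JQ1, 62 under DMSO + PHA and 20 under JQ1 + PHA. Its log2 ratio for JQ1 was -1.46 (-2.04 to -0.91) without PHA and -1.55 (-2.36 to -0.80) with PHA. SOCS2 also lies at a mean FPKM from 0.1 to 1, where 19.2% and 20.7% of genes were at least 2-fold lower in these comparisons. Among the cytokines, IL15 had 58, 8, 51 and 12 counts and TSLP 130, 88, 135 and 60 in the same order. These genes were also chosen after their values were seen.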
